A study of Mus musculus with 4 samples.

Results

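The genes described here are 36 genes of the interferon response and of antigen presentation, taken as every array probe whose gene name equaled 1 of the 36 names. All 36 were on the array, out of 29676 gene names in all, with 50 probes between them. Their expression was compared between untreated astrocyte-enriched cultures (AECs, n = 2) and AECs kept under oxygen–glucose deprivation (OGD) for 15 h (n = 2). The study asked how astrocytes respond to a hypoxic–ischemic insult, and the arrays asked which genes change under OGD.

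Both groups came from mixed glia of the cortex of newborn ICR mice, and the methods describe pooling several pups for a culture. Both received PLX3397, which blocks Csf1r, the receptor that microglia need to survive, and according to the authors the cultures still held oligodendrocytes and possibly NG2 glia. The OGD group was kept in medium without glucose in a low-oxygen pouch, and no sample had an interferon, a virus or another immune stimulus added, as far as the labels and methods say. The methods state that wells held cells of separate cultures made from different animals, but the labels do not tie an array to a culture, so p-values measure only the spread between these samples.

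Interferons are secreted by cells that sense foreign or misplaced nucleic acid. They bind receptors that activate the kinases Jak1 and Tyk2, and a complex of transcription factors that includes Stat2 and Irf9 then switches on a large set of interferon-stimulated genes, many of them antiviral. The same system raises the class I antigen presentation machinery, in which peptides are pumped into the endoplasmic reticulum by Tap1 and Tap2 and shown at the cell surface by a class I heavy chain such as H2-K1 paired with B2m, and astrocytes are among the brain cells that can respond in this way.

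Processed signals were dimmer overall after OGD, with a 75th percentile of 2135 and 2164 in untreated cultures but 887 and 776 in OGD cultures, while the spiked-in control RNA differed by only -0.08 on the log2 scale (OGD minus untreated). Each array was therefore put relative to its own 75th percentile, and "higher" and "lower" below mean relative to the rest of the array. Before this scaling, the processed signal of all 36 genes was lower on both OGD arrays than on both untreated arrays, as it was for 90.8% of the 21048 genes tested. All 4 arrays lay on 1 slide with 1 scan date, and replicate arrays correlated at r = 0.998 (untreated) and r = 0.995 (OGD) across probes. Of 15 astrocyte marker genes, all were measured above background in both groups. In such bulk RNA, fewer cells of a type and less RNA per cell cannot be told apart.

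After 15 h of OGD the interferon-stimulated genes did not move as a block. A minority fell strongly, led by *Parp14*, *Rsad2*, *Nlrc5* and *Eif2ak2*, while the class I heavy chain *H2-K1*, the antiviral membrane protein *Bst2*, the nucleic acid sensor *Zbp1* and 1 probe of the ubiquitin ligase *Trim25* rose by about the 2-fold limit, though all of these turned, to between -0.25 and -0.19 on the log2 scale, when the spiked-in control RNA set the scale. The genes closest to 0 were *Ifit1*, *Tap2*, *Isg15*, *Oasl2*, *Irf7*, *Usp18* and *Ifit3*, with log2 fold changes from -0.28 to 0.19. With a gene represented by its brightest probe, 4 of the 36 genes were called higher and 10 lower by limma (Benjamini–Hochberg adjusted p under 0.05 and over 2-fold). Over all genes tested the same rule called 12.7% higher and 15.0% lower. By adjusted p alone, 9 of the 36 were higher (37.1% of all genes) and 18 lower (27.8% of all genes), so that 27 passed in either direction (64.9% of all genes) and 9 did not. The median log2 fold change of the 36 was -0.35, beside 0.16 over all genes. The 2 arrays of each group did not overlap for 33 of the 36 (84.8% of all genes), with OGD above in 12 and below in 21, beside 48.6% and 36.2% of all genes. An exact permutation test of 2 against 2 arrays cannot give a p below 0.333, so every p here is that of limma.

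**Figure D1:**
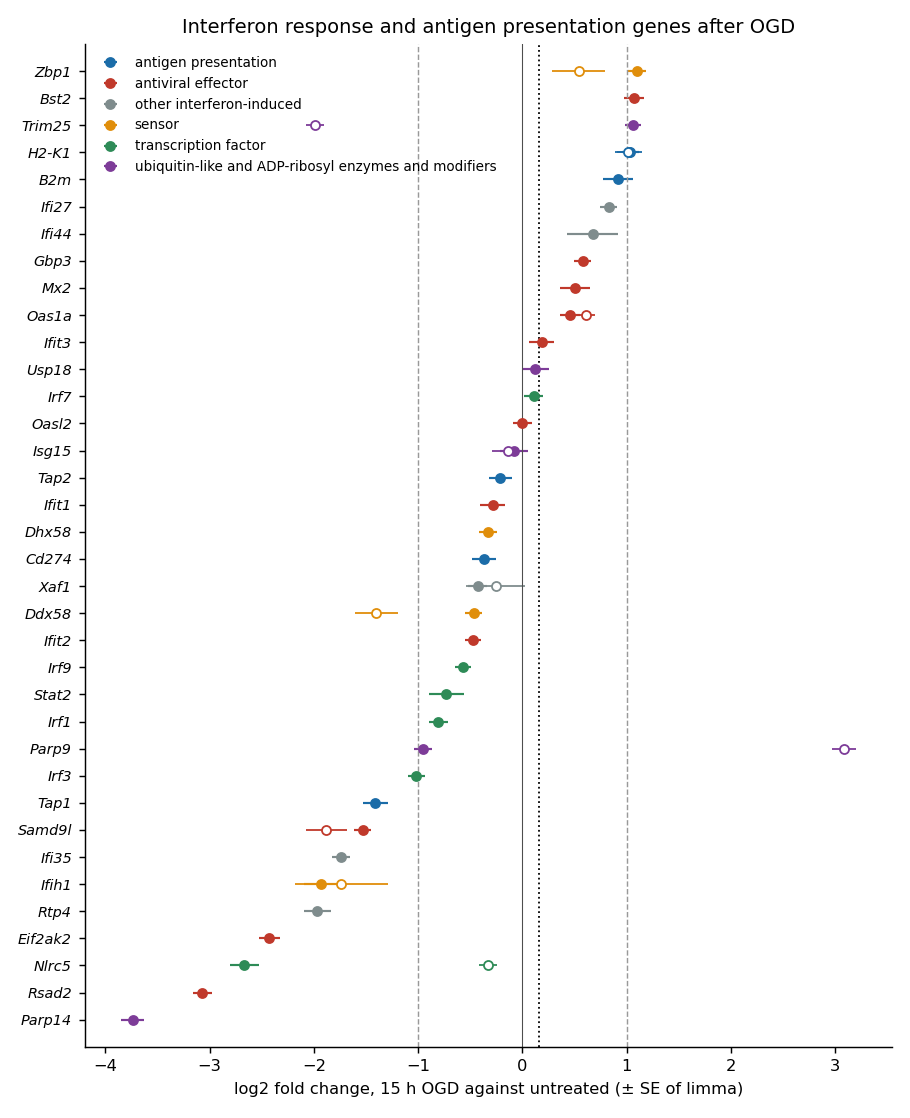
Log2 fold change (15 h OGD against untreated, n = 2 arrays each) of the 36 genes, ordered by their brightest probe (filled) with any other tested probe open, and with bars for the standard error of limma. Dashed lines mark 2-fold, the dotted line is the median of all genes at 0.16, colors give the role, and a filled point of *Parp14* stands at -3.74 while the open point of *Parp9* stands at 3.09, opposite its filled point.

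**Figure D2:**
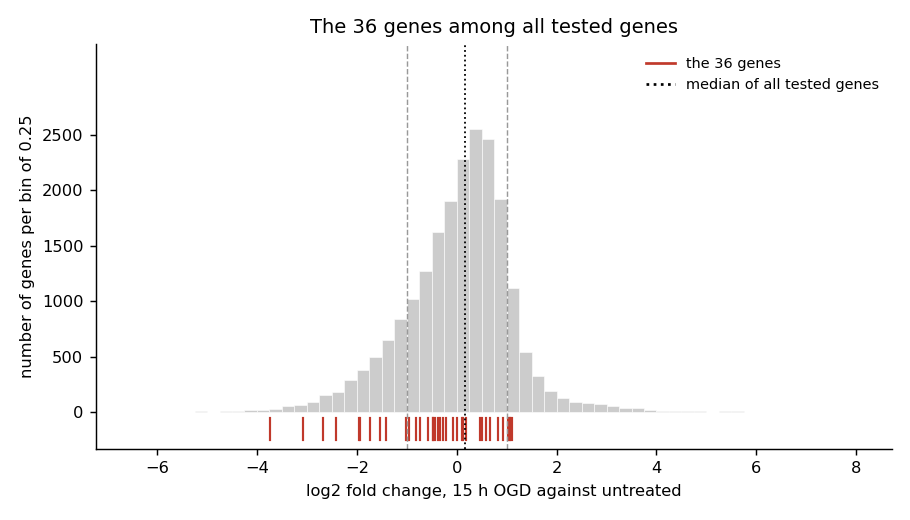
Histogram of log2 fold changes of all 21048 genes tested (grey bars, number of genes per bin) with a red mark under it for each of the 36 genes at its brightest probe. The 36 spread from -3.74 to 1.10, the dashed lines mark 2-fold and the dotted line is the median of all genes.

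The calls in the upward direction depended on the scaling. The split of higher to lower among the 36 was 4 to 10, against 1 to 10 with quantile normalization, 0 to 11 with the 75th percentile taken over probes above background, and 0 to 26 when the spiked-in RNA set the scale. Over all 21048 genes the split was 2670 to 3159 as first given, and 2082 to 3339, 1906 to 3716 and 424 to 11717 under these scalings. They put the median of all genes at -0.02, 0.01 and -1.13, and normexp background correction, with a split of 2 to 8 (4957 to 1531 over all genes), put it at 0.51. The median of the 36 minus that of all genes was -0.33, -0.51, -0.51 and -0.71 in these 4 settings, and -0.51 as first given.

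The promoters of these genes are known for the interferon-stimulated response element (ISRE), the site bound by the complex that holds Stat2 and Irf9 and by other IRF proteins. The RefSeq promoter windows (GRCm38.p6, 250 bases before and 50 after each start) held 26 of the 36 genes. The ISRE core (GAAA, any 2 bases, GAAA), searched on both strands, was in 12 of these 26 (46.2%), beside 3.99% of all genes in the table. In 9 genes it lay upstream of the start. Among these 9, stretches of the 2 with the lowest values (*Rsad2* and *Stat2*), the 2 with the highest (*B2m* and *Bst2*) and 2 in between (*Isg15* and *Ifit1*) are given with the matches in capitals (TTTC, 2 bases, TTTC is the same core on the other strand), since similar letters stand before genes that behaved differently. Each is written 5′ to 3′ along the gene.
Rsad2, chr12:26456548-26456587, minus strand: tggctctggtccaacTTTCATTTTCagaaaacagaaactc
Stat2, chr10:128270261-128270300, plus strand: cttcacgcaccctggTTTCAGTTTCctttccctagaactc
Isg15, chr4:156200860-156200911, minus strand: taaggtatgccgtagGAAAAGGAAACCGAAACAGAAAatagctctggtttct
Ifit1, chr19:34640770-34640828, plus strand: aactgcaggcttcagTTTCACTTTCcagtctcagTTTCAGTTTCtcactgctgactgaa
B2m, chr2:122147533-122147572, plus strand: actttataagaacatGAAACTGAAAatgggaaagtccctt
Bst2, chr8:71537572-71537617, minus strand: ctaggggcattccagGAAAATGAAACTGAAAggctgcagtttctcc

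*Isg15* carried 3 overlapping matches and *Bst2* carried 2, and *Ifit1* carried 2 that lie apart. The log2 fold changes behind these 6 sequences were -3.07 for *Rsad2*, -0.73 for *Stat2*, -0.08 for *Isg15*, -0.28 for *Ifit1*, 0.92 for *B2m* and 1.07 for *Bst2*. Across the 12 genes with the core the median was -0.18 (range -3.07 to 1.07), with 1 called higher and 3 lower. Across the 14 without it the median was -0.45 (range -1.74 to 1.06), with 2 called higher and 4 lower. A further 10 genes had no window in the table. The other motifs searched were the gamma-activated sequence TTCNNNGAA (6 of 26, 23.1%, beside 9.55% of all genes), the NF-kB consensus (5 of 26, 19.2%, beside 9.55%) and the hypoxia response core ACGTG (3 of 26, 11.5%, beside 21.8%). In *Bst2* alone of the 26 an ISRE core overlapped a gamma-activated sequence. Such matches describe letters in a window and not bound sites.

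Among the 6 transcription factors none rose, and 2 were called lower, with a median of -0.77. *Nlrc5*, the transactivator of class I genes, had processed signals of 308 and 332 in untreated cultures and 18.6 and 20.3 under OGD at its brightest probe (mm9 chr8:97051105-97051164). The OGD values lay far below the untreated ones, a fall of 2.67 ± 0.14 (SE of limma, n = 2 per group) on the log2 scale relative to the array (limma adjusted p = 0.00101), or of 1.10 with normexp. *Irf3*, which starts interferon transcription after nucleic acid is sensed, had processed signals of 18681 and 19799 against 3909 and 3452, and its change of -1.02 ± 0.08 (limma adjusted p = 0.00174) was just past 2-fold. The call of *Irf3* was lost without untreated replicate 2 (-0.98) and with arrays centered on the median of the tested probes (-0.95).

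The other 4 factors did not pass 2-fold. *Irf1*, *Stat2* and *Irf9*, the last 2 being parts of the complex that binds the ISRE, lay at -0.81 ± 0.09, -0.73 ± 0.17 and -0.57 ± 0.07, each past the adjusted p limit alone and with all OGD arrays below the untreated ones. *Irf7*, which amplifies the interferon response, was at 0.11 ± 0.09 (limma adjusted p = 0.354). A second probe of *Irf1* was not above background and was not tested.

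The 4 sensors split. *Ifih1*, which encodes the RNA sensor MDA5, had log2 signals relative to the 75th percentile of -0.08 and -0.12 against -1.83 and -2.23 and fell by 1.93 ± 0.16 on the log2 scale (limma adjusted p = 0.00210). Its second probe, above background on only 1 of the OGD arrays, was at -1.73. *Ddx58*, which encodes the related sensor RIG-I, lay at -0.47 ± 0.08, and *Dhx58*, which encodes the regulator LGP2, at -0.33 ± 0.09, the latter turning to 0.44 with normexp background correction.

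*Zbp1*, a sensor of Z-form nucleic acid linked to necroptosis, was dim. Its processed signals of 71.6 and 68.2 against 60.1 and 55.6 gave a relative increase of 1.10 ± 0.09 (limma adjusted p = 0.00179), the largest among the 36 by brightest probe. The call was lost with the 75th percentile over probes above background (0.95) and with the mean over probes (0.82), and the value turned to -0.19 with spike-in scaling.

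Effectors that block virus directly ranged from -3.07 to 1.07, with 1 called higher and 3 lower of 11. *Rsad2*, which encodes the antiviral enzyme viperin, had processed signals of 221 and 223 against 11.4 and 9.12, and its OGD values lay close to background (mm9 chr12:27127859-27127918). It fell by 3.07 ± 0.09 on the log2 scale (limma adjusted p = 0.000731), and by 0.90 with normexp background correction, which adds a constant to every signal. *Eif2ak2*, the double-stranded RNA-dependent kinase PKR that halts translation, had processed signals of 3971 and 3895 against 321 and 249, a fall of 2.43 ± 0.10 (limma adjusted p = 0.000777). *Samd9l*, an interferon-induced restriction factor, went from 3373 and 3668 to 504 and 437, a fall of 1.53 ± 0.08, and its second probe was at -1.88. These 3 genes had no overlap between groups.

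*Bst2*, which encodes tetherin, a protein that holds budding virus at the cell surface, was the effector called higher. Relative to the 75th percentile its log2 signals were 2.21 and 2.07 in untreated and 3.26 and 3.17 in OGD cultures, a difference of 1.07 ± 0.10 (limma adjusted p = 0.00237). The call was lost without untreated replicate 2 (1.00, just short of 2-fold) and under normexp (0.93), quantile normalization (0.76) and the 75th percentile over probes above background (0.92), and the value turned to -0.22 with spike-in scaling.

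The remaining 7 effectors stayed within 2-fold. The GTPase genes *Gbp3* and *Mx2* were at 0.58 ± 0.08 and 0.50 ± 0.15, and *Oas1a*, which encodes an oligoadenylate synthetase, at 0.46 ± 0.09 with a second probe at 0.61. The translation blockers *Ifit3*, *Ifit1* and *Ifit2* were at 0.19 ± 0.12, -0.28 ± 0.12 and -0.47 ± 0.08, of which *Ifit2* passed the adjusted p limit alone (limma adjusted p = 0.00971). *Oasl2* had relative log2 signals of -0.57 on both untreated arrays and of -0.50 and -0.64 on the OGD arrays, so the groups overlapped (limma adjusted p = 0.994).

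The modifying enzymes, which attach ubiquitin-like proteins or ADP-ribose, included the strongest change. *Parp14*, an ADP-ribosyltransferase, had processed signals of 3557 and 3777 in untreated cultures and 122 and 92.2 under OGD (mm9 chr16:35832992-35833051). Its fall of 3.74 ± 0.11 on the log2 scale (13.3-fold, limma adjusted p = 0.000731) made it the only one of the 36 past 10-fold. That limit was passed by 1.27% of all genes in either direction, 0.561% lower and 0.708% higher. Over the alternatives *Parp14* ranged from -5.03 to -3.17, the latter short of 10-fold. *Rsad2*, *Nlrc5* and *Eif2ak2* reached -4.36, -3.96 and -3.71 at their lowest, past 10-fold in size. *Isg15*, the ubiquitin-like protein, and *Usp18*, the protease that removes it, both overlapped between groups. The relative log2 signals of *Isg15* were 1.37 and 1.24 against 1.37 and 1.08, and those of *Usp18* were -1.03 and -1.22 against -0.88 and -1.12. Their differences of -0.08 ± 0.14 and 0.13 ± 0.13 did not pass the test (limma adjusted p = 0.631 and 0.446).

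Among the interferon-induced genes of other kinds, *Rtp4* and *Ifi35* were called lower and none was called higher. *Rtp4*, a receptor transporter protein, had processed signals of 3763 and 3187 against 387 and 303, a fall of 1.97 ± 0.13 (limma adjusted p = 0.00144). *Ifi35* went from 2084 and 2121 to 271 and 217, a fall of 1.74 ± 0.09. Both were clear of overlap by a wide margin. *Ifi27* lay at 0.83 ± 0.08, *Ifi44* at 0.67 ± 0.24 with the largest untreated spread of the 36 (SD 0.35), and *Xaf1*, a proapoptotic gene, at -0.43 ± 0.09.

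**Figure D3:**
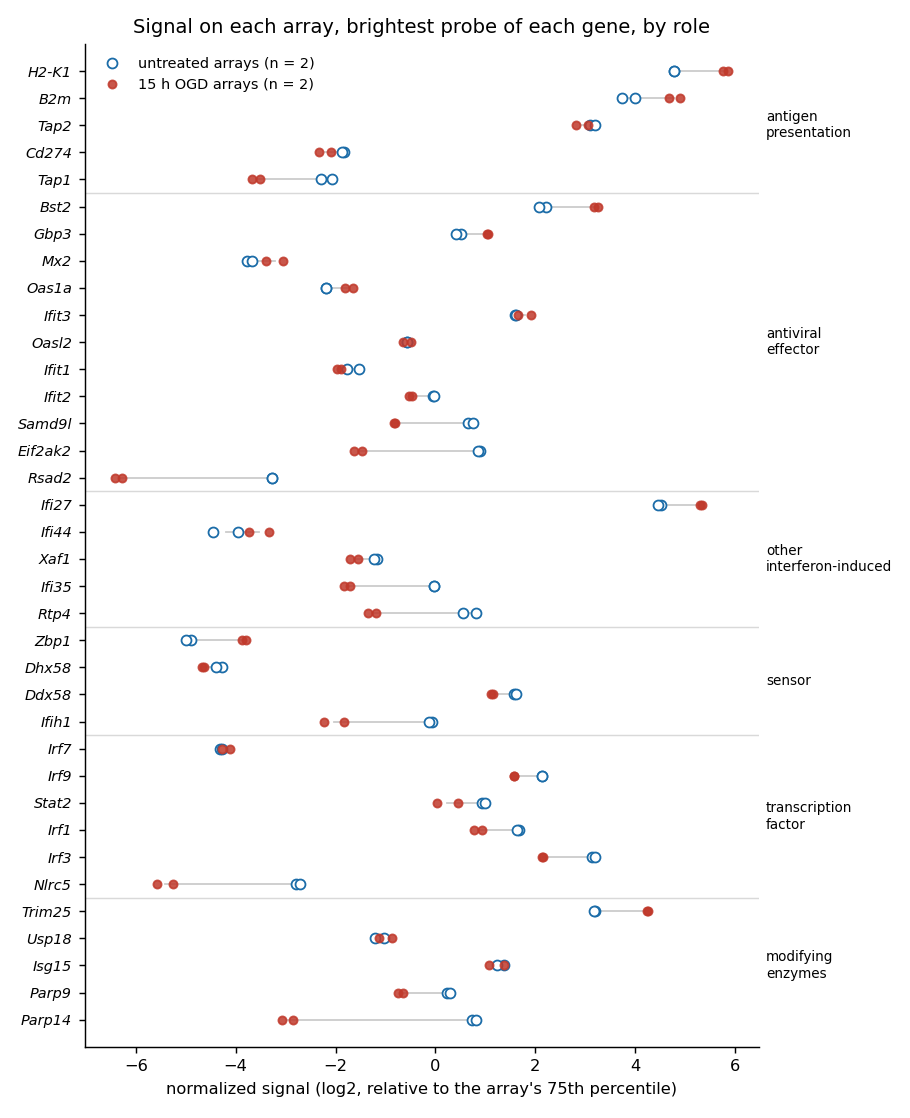
Signal of the brightest probe of each of the 36 genes on each array, in log2 relative to that array's 75th percentile, grouped by role (open blue, untreated; filled red, 15 h OGD; n = 2 each; grey line, between the group means). The groups overlap for *Oasl2*, *Isg15* and *Usp18* and are separate for the other 33, and positions of different genes are not comparable because probes differ in brightness.

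Antigen presentation genes of the list moved in different directions. The heavy chain *H2-K1* had processed signals of 58630 and 59544 against 48265 and 45361, which relative to the 75th percentile are 4.78 and 4.78 against 5.77 and 5.87. The difference was 1.04 ± 0.08 (limma adjusted p = 0.00186), and its other probes gave 1.02 and 1.01. As for the other *H2* genes below, these probes may also read close copies, and the last had no mapped position. The call was lost without OGD replicate 2 (0.99), under normexp (0.96), with the 75th percentile over probes above background (0.88) and under quantile normalization, where the value was 0.21, and the value turned to -0.25 with spike-in scaling. *B2m*, its light chain, was just short of 2-fold at 0.92 ± 0.15 (0.26 with quantile normalization and -0.37 with spike-in scaling), and passed 2-fold without untreated replicate 1 (1.06) or OGD replicate 2 (1.02).

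The peptide transporter subunits, which work as a pair, were read by 1 probe each. *Tap1* had processed signals of 437 and 512 against 69.2 and 68.2 and fell by 1.41 ± 0.12 on the log2 scale (limma adjusted p = 0.00217), or by 0.77 with normexp. *Tap2*, with 18317 and 19684 against 6266 and 6412, was at -0.21 ± 0.11 (limma adjusted p = 0.179). *Cd274*, the checkpoint ligand PD-L1, was at -0.37 ± 0.11 (limma adjusted p = 0.0515).

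Near the 2-fold limit, *Irf3*, *H2-K1*, *Trim25*, *Bst2* and *Zbp1* lay just inside, and *Parp9* (-0.95), *B2m* (0.92), *Ifi27* (0.83) and *Irf1* (-0.81) just outside. Of the 10 genes called lower, 7 were called in every one of the 18 alternative settings, and the exceptions were *Irf3*, *Rsad2* and *Tap1* as given above. None of the 10 changed direction.

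Of the 36 genes, 11 had more than 1 tested probe, and in 5 the probes were called differently. In *Parp9* the brightest probe (mm9 chr16:35972577-35972636) had processed signals of 2500 and 2630 against 565 and 463, at -0.95 ± 0.08. Another probe of *Parp9* lay 4334 bases upstream (mm9 chr16:35968243-35968302) and had 29.1 and 34.1 against 115 and 93.2, at 3.09 ± 0.11. That probe was the only one of the 48 tested probes whose processed signal was higher on both OGD arrays before scaling. The same held for 1540 of the 28254 tested probes of all genes. The difference between these probes was -4.04 ± 0.12 (brightest minus other, limma adjusted p = 0.000516).

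*Trim25*, which ubiquitinates RIG-I, showed the opposite arrangement of brightness. Its brightest probe (mm9 chr11:88874956-88875015) had processed signals of 19518 and 19658 against 16750 and 14839, at 1.06 ± 0.07, and the probe 6565 bases downstream (mm9 chr11:88881521-88881580) had 10907 and 10460 against 1139 and 948, at -1.99 ± 0.08. The difference was 3.05 ± 0.11 (limma adjusted p = 0.000516). For both genes the probe nearer the gene's start gave the higher value, and the mean over probes turned the sign of each, to 1.07 for *Parp9* and -0.46 for *Trim25*. The brightest probe of *Trim25* also lost its call with quantile normalization (0.53) and with the 75th percentile over probes above background (0.91), and turned to -0.23 with spike-in scaling. The direction of change of these genes therefore rests on the probe chosen.

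The 2 probes of *Nlrc5*, 20627 bases apart in mm9, were at -2.67 and -0.33 (difference -2.34 ± 0.13, limma adjusted p = 0.000820), where the upstream probe had processed signals of 35.3 and 36.6 against 11.4 and 10.7. In *Ddx58* the brightest probe had 6342 and 6659 against 1964 and 1676, at -0.47, and the other had 367 and 356 against 67.8 and 41.3, at -1.40 (difference 0.93 ± 0.20, limma adjusted p = 0.0230). The probes of *Zbp1*, at 1.10 and 0.54, differed by 0.56 ± 0.22 (limma adjusted p = 0.107). In these 5 genes the probe farther upstream had the higher value, and over all 11 probe pairs of the 36 genes with known positions it was higher in 8 and lower in 3, which were pairs of *Ifih1*, *Xaf1* and *H2-K1*. This share of 72.7% lies close to the 71.8% of the 7077 such pairs of all genes, so the order of the probes is not particular to these genes. Differences between probes are common on this array, since 45.0% of the 7154 probe pairs of all genes passed the adjusted p limit and 27.3% did so with over 2-fold between them. The remaining genes with several tested probes, such as *H2-K1*, *Isg15*, *Oas1a* and *Samd9l*, had probes within 0.35 of each other.

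**Figure D4:**
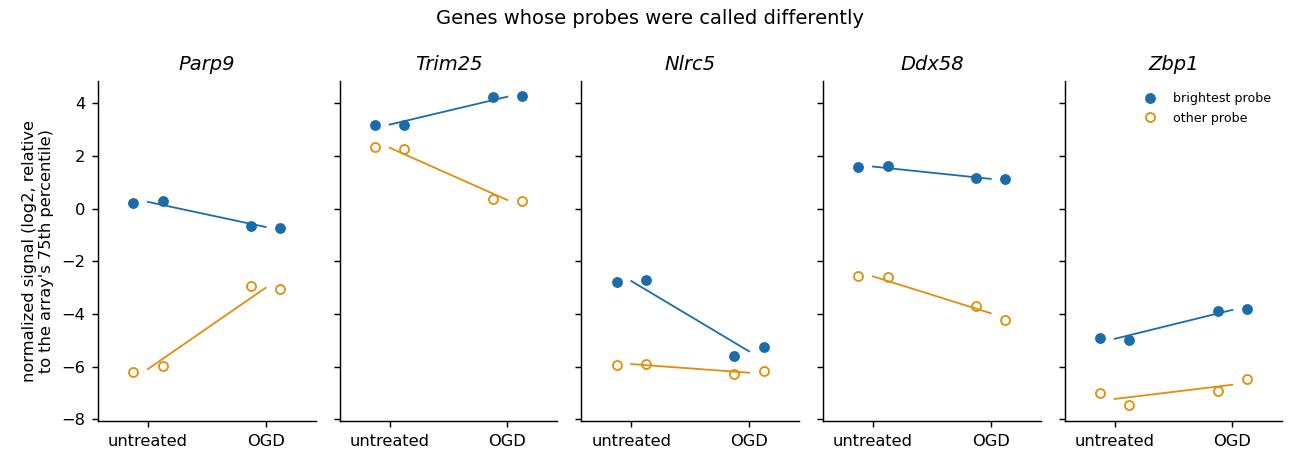
Signal in log2 relative to each array's 75th percentile for both probes of the 5 genes whose probes were called differently, with 1 point per array (n = 2 per group) and a line between group means. The lines of *Parp9* and of *Trim25* cross in direction, with -0.95 against 3.09 and 1.06 against -1.99, and only slopes and not heights can be compared between probes.

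The rest of the pathway was read from 9 lists of genes outside the 36. Of their 211 genes, 195 were on the array and 172 were tested, of which 23 were called higher (12.7% of all genes) and 44 lower (15.0% of all genes). A gene not above background on either array of a group has no measured level there. Its fold is set against the lowest signal that counted as above background on that array (the floor). This fold is no firm bound, since some probes with signals over the floor did not count as above background. Normexp also gave smaller changes for some of these genes. Over all genes the calls were 4957 higher and 1531 lower with normexp, and 2082 and 3339 with quantile normalization. They were 1906 and 3716 with the 75th percentile over probes above background, and 424 and 11717 with spike-in scaling.

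Interferon genes themselves were close to background. *Ifnb1*, the first type I interferon made on nucleic acid sensing, had processed signals of 3.07 and 2.89 in untreated cultures, not well above background. Under OGD they were 43.3 and 65.8, and *Ifnb1* was 20.3-fold higher against the floor (limma adjusted p = 0.00104). It was the only ligand called higher among 12 tested, against 10 called higher with normexp, under which *Ifnb1* was at 2.24. The median of the ligands minus that of all genes was 0.32, and 0.53 with normexp. *Ifnk* was 2.96-fold lower against the floor, with 65.7 and 39.5 against 4.85 and 4.71. *Ifng* was called lower from 14.8 and 10.8 to values not above background, with no fold given. Both turned with normexp, to 0.62 for *Ifnk* and 1.02 for *Ifng*, so their direction rests on the background correction.

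Receptor and kinase genes leaned downward, with 1 higher and 5 lower of 10 tested and a median of -0.71. Under normexp the counts were 1 and 2, with a median of -0.19. The median minus that of all genes was -0.87, and -0.70 with normexp. *Ifnlr1*, the type III interferon receptor chain, had processed signals of 199 and 194 against 1.43 and 1.62. It was 11.4-fold lower against the floor (limma adjusted p = 0.000731), or at -0.95 on the log2 scale with normexp. For the type I receptor, *Ifnar2* was at 1.07 ± 0.08, while *Ifnar1* was at -1.27 ± 0.10 by its brightest probe and at 0.95 and 1.15 by its other probes. *Ifnar2* lost its call with quantile normalization (0.87) and turned to -0.22 with spike-in scaling. The interferon gamma receptor chains *Ifngr1* and *Ifngr2* were at 0.18 ± 0.08 and 0.02 ± 0.10 and did not pass the test.

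Sensing adaptors and kinases gave 1 higher and 6 lower of 14, with a median of -0.60 (-0.22, with 4 lower, under normexp). Minus the median of all genes this was -0.76, and -0.73 with normexp. The endotoxin receptor *Tlr4* had 416 and 421 against 28.1 and 28.9, a log2 fold change of -2.50 (-1.23 with normexp). *Tlr7*, a sensor of single-stranded RNA, was 2.41-fold lower against the floor (0.57 on the log2 scale with normexp, the opposite direction). The ligase *Traf6* was at 1.36, with other probes at 2.80 and 0.94. Of the other IRF genes tested, *Irf5* was at 1.93 and the dim *Irf8* at -1.01, the latter turning to 0.71 with normexp. *Irf2bpl*, named for its likeness to an IRF2-binding protein and not itself an IRF, was at -1.81.

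Of 74 further interferon-induced genes, 5 were called higher and 21 lower, with a median of -0.37. The counts were 9 and 12 with normexp, under which the median was 0.20, and 0 and 53 with spike-in scaling. Minus that of all genes the median was -0.53, with normexp -0.31 and with spike-in scaling -0.53. By brightest probe, only the chemokine *Cxcl10* of the 74 had a processed signal higher on both OGD arrays. Of all 21048 genes tested, 1006 did. *Cxcl10* went from 4567 and 4598 to 8139 and 9094, a relative change of 2.28 ± 0.15 (limma adjusted p = 0.00135). Other probes of *Ifi203* rose too, 1 of them from 90.1 and 104 to 226 and 257. The second probe of *Cxcl10*, with 3.08 and 1.85 against 51.6 and 113, was above background only under OGD, so its change was not measured. The mean over the probes of *Cxcl10*, 4.33, includes that probe. *Ifi30*, a lysosomal thiol reductase, was at 1.37 ± 0.12. At the other end, *Trim21*, a cytosolic antibody receptor, had 1124 and 1100 against 67.7 and 35.8, at -3.13 ± 0.27, and *Oas1c* was at -2.70 ± 0.27. Among 10 negative regulators, *Socs3* and *Ptpn1* were at -2.30 and -1.73 (a second probe of *Ptpn1* was at -0.86), and *Pias2* was at 1.01. *Pias2* fell short of 2-fold with quantile normalization (0.91) and normexp (0.91), and turned to -0.28 with spike-in scaling.

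The other class I genes, by contrast, held 10 called higher and none lower of 28 tested, with a median of 0.81. The counts were 7 and 1 with quantile normalization, and 2 and 4, with a median of -0.48, when the spiked-in RNA set the scale. The median minus that of all genes was 0.65, also with spike-in scaling, and 0.56 with quantile normalization. *H2-D1* was at 1.11 ± 0.13 (limma adjusted p = 0.00410) and *H2-Q5* at 2.59 ± 0.10. The dim *H2-Q1* was 3.28-fold higher against the floor, or at 1.47 on the log2 scale with normexp. All of the 10 carried *H2* names. Many are close copies whose probes may read each other, so they are uncertain as separate measurements. *H2-Q5* is annotated to a non-coding record, and *H2-Bl* had no mapped position. The immunoproteasome subunits *Psmb8* and *Psmb9* were at 0.35 ± 0.09 and -0.47 ± 0.08 and were not called at 2-fold.

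Class II genes gave 2 higher and 5 lower of 12. The invariant chain *Cd74* had 55.5 and 61.0 against 46.3 and 71.4, at 1.36 ± 0.31 (limma adjusted p = 0.0223), and the protease *Ctss* was at 1.42 ± 0.37, both dim and with a wide OGD spread. The regulators *Rfxap* and *Rfx5* were lower, the former at a log2 fold change of -2.09. *Rfx5* was 2.88-fold lower against the floor, although a second probe of *Rfx5* was at -0.00. With normexp *Rfxap* was at -1.02 and *Rfx5* turned to 0.41, and the class II split became 4 higher and 1 lower. The class II median minus that of all genes was -0.13, and -0.04 with normexp. Of 5 co-stimulatory and inhibitory ligands, *Tnfsf9* was at 2.17 and *Cd276* at -1.23.

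Class II genes and several of the sensors above are also expressed by microglia. By immunostaining, the paper found Iba-1-positive microglia almost absent from cultures given PLX3397. Of 17 microglia and macrophage markers 15 were tested, and 3 were called higher and none lower at 2-fold. The counts were 9 and 0 with normexp, 1 and 2 with the 75th percentile over probes above background and 1 and 8 with spike-in scaling. The median of these markers minus that of all genes was 0.02, also with spike-in scaling, and 0.55 with normexp. *Tmem119* (-0.88) and *Trem2* (-0.93) were lower by adjusted p alone (limma adjusted p = 0.00682 and 0.0237). The summed level of the 17, in units of the 75th percentile, was 9.64 and 8.54 in untreated cultures but 15.3 and 14.7 in OGD cultures, of which *Cd68* rose from 1157 and 1213 to 4301 and 3778 in processed signal. Without *Cd68* the sum was 9.10 and 7.98 against 10.5 and 9.82. A probe named *Siglech* supplied much of the sum, and it is bright beside other markers near background, so what it reads is uncertain. Without *Siglech* and *Cd68* the sum was 4.88 and 4.47 against 7.01 and 6.72. Not all of the 3 markers called higher are named here. The defining markers *P2ry12* and *Cx3cr1* were near background. Their processed signals before scaling were 19.5 and 21.5 against 9.97 and 8.04, and 13.8 and 11.1 against 5.51 and 2.79. The part of these cells in the values above was not tested.

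**Figure D5:**
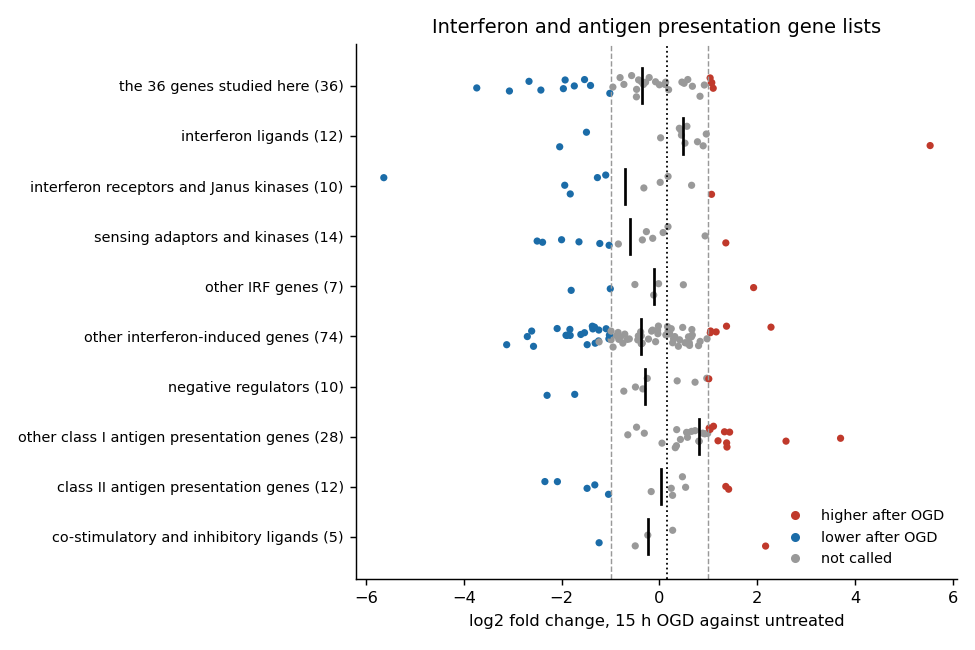
Log2 fold change (15 h OGD against untreated) of each tested gene, by its brightest probe, in the 36 genes and in 9 further lists (number tested in brackets), with a black bar at each list's median, dashed lines at 2-fold and the dotted line at the median of all genes. Class I genes lie to the right with a median of 0.81 and receptor genes to the left with -0.71. When the spiked-in RNA set the scale the class I median was -0.48, beside -1.13 over all genes. Genes dim in 1 group, such as *Ifnb1* and *Ifnlr1*, are drawn at their fitted value although their level in that group was not measured.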

How the data were processed

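Each RNA sample was labeled with Cy3 and hybridized to its own one-color array. The authors deposited the intensity of each spot as processed by the Feature Extraction software (version 11.5.1.1, per the submitters' processing notes), which subtracts background within an array. Probe positions are on mm9, per the file headers. From the deposited intensity, log2 was taken, control and outlier spots were left out, spots of a probe were averaged, and each array's 75th percentile was subtracted, as the methods state. A probe was tested if a fraction of at least 0.5 of its spots was well above background on both untreated or both OGD arrays, and 28254 probes gave an estimate. Groups were compared with limma 3.58.1 (lmFit, eBayes) in R 4.3.3, with Benjamini–Hochberg adjustment over these probes. A gene took the value of its brightest probe, by the mean of the 4 arrays. Probe pairs were compared by limma on their difference. Tables were handled with pandas 2.3.3 and numpy 2.4.6 under Python 3.11.15, and plots drawn with matplotlib 3.10.9. Arrays have no read depth, so their number limits the precision.

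The 36 genes, the lists, the tests and the alternatives were chosen with earlier results of these data known. Named were all 36 genes, the 2 largest increases and 2 largest decreases called in each further list, and *Ifnb1*, *Ifnar1*, *Ifnar2*, *Ifngr1*, *Ifngr2*, *H2-D1*, *Psmb8*, *Psmb9* and *Cd74* whatever their values. A gene that the rule also named is not reported here. Marker lists of oligodendrocytes, meningeal fibroblasts, endothelial cells and lymphocytes gave 2 higher and 1 lower of 13, 0 and 2 of 8, 0 and 1 of 4, and 0 and 0 of 4 tested, and that of astrocytes 3 and 1 of 15. The alternatives were the methods' t-test, a block for the replicate number, a trended robust prior, other background correction, scaling and filters, outlier spots kept, the series table, each array left out, and the mean over probes.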

Additional observations from a re-analysis of the deposited data

How the results depend on the processing

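Of 648 values of the 36 genes under 18 alternatives, 591 kept their direction and side of the limits, 16 lost a call, 17 gained one and 24 changed sign. The count of the 36 genes called higher (4) became 2 with normexp, 1 with quantile normalization, 0 with the 75th percentile over probes above background and 0 with spike-in scaling, and the count called lower (10) became 26 with spike-in scaling. For the further pathway genes, 23 higher and 44 lower became 38 and 22 with normexp and 3 and 102 with spike-in scaling. The median of the 36 (-0.35) became -0.20, -0.50 and -1.64 with normexp, the 75th percentile over probes above background and spike-in scaling. Leaving out each array in turn gave 3 to 5 higher, 9 to 11 lower, a median of -0.40 to -0.31, and 18 to 23 higher and 38 to 50 lower pathway genes. The methods' t-test gave 4 higher and 10 lower of the 36. The labels share replicate numbers 1 and 2, but nothing says that they pair the samples (correlation of deviations -0.06), and with the replicate number as a block 4 were higher, 10 lower, and 23 and 43 of the pathway genes, with a median of -0.35.

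With spike-in scaling these genes changed sign, to -1.10 (*Ifit3*), -1.18 (*Irf7*), -0.83 (*Oas1a*), -0.78 (*Mx2*), -0.61 (*Ifi44*), -0.46 (*Ifi27*), -0.22 (*Bst2*), -1.16 (*Usp18*), -0.71 (*Gbp3*), -0.37 (*B2m*), -0.25 (*H2-K1*), -0.23 (*Trim25*) and -0.19 (*Zbp1*). With the 75th percentile over probes above background *Irf7* and *Usp18* were at -0.0432 and -0.0268. *Oasl2* was at 0.0333 with quantile normalization, 0.00662 with median scaling, 0.0604 when centered on the median of the tested probes (chosen after seeing the data), and between -0.0719 and 0.0701 with each array left out, above 0 without untreated replicate 2 or OGD replicate 2. *Isg15* was at 0.0633 without OGD replicate 2 and *Dhx58* at 0.44 with normexp. With the mean over probes *Parp9* was at 1.07 and *Trim25* at -0.46. Without OGD replicate 1 *Parp9* passed 2-fold at -1.0. Probes near background, such as the second probes of *Xaf1*, *Zbp1* and *Ifih1*, are limited by signal over background. Apart from the scalings, the causes were not tested.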
